A study of Mus musculus and Homo sapiens with 10 samples.

Results

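The outermost 2 Mb of the mouse chromosomes were examined for DNA double-strand breaks in jejunal enterocytes. On each of chromosomes 1 to 19, the centromere side was the 20 bins of 100 kb that follow the assembly's placeholder for the centromere in GRCm38 and end at position 5000000, and the telomere side was the 20 bins of 100 kb that end at the highest position listed in any of the 6 enterocyte libraries. The first centromere-side bin of chromosome 9 was left out by this rule. The rule is written in positions only, but it was set with earlier results of these data known. The rule gave 759 bins of 26636 on chromosomes 1 to 19, X and Y, 380 on the telomere side and 379 on the centromere side. They were set against the 23288 other bins of chromosomes 1 to 19, below called the rest. Relative density is break ends per base divided by break ends per base in the rest of the same chromosome, so library depth cancels.

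Breaks were mapped by in-suspension BLISS, in which break ends are blunted and ligated to an adapter in lysed cells and nuclei and then amplified by in vitro transcription and sequenced, so each end marks a position in the genome. Enterocytes of the jejunum had been sorted by surface Cd73, the ectonucleotidase encoded by Nt5e that is enriched toward the villus tip, into Cd73 high, Cd73 mid and Cd73 negative cells. Each gate had 2 libraries, labelled M1 and M2. The labels name no strain, age, genotype or treatment, and they do not say whether M1 and M2 are separate mice, so p-values here speak of the spread between libraries alone.

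Mouse autosomes are telocentric. The centromere lies at an end, within long arrays of satellite repeats, and the other end is a telomere of TTAGGG repeats protected by shelterin. The chromatin beside mouse centromeres is packed as constitutive heterochromatin, while chromatin near the far telomeres can be rich in genes. Break mapping in other cells has placed many endogenous breaks at the promoters of active genes, most of which are CpG islands. The bins begin after the placeholder by which the build stands for the centromere and end at the last listed position, so the long repeat arrays are mostly outside them.

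The promoters below are shown because break ends within the chromosome ends were concentrated at CpG-rich gene starts and scarce at the starts of olfactory receptor genes. Each is the 250 bases before the annotated gene start, from RefSeq for GRCm38.p6, written 5′ to 3′ on the gene's own strand, with every CG dinucleotide in capitals. Prkcz and Ccdc137 had the highest break end density of the telomere side among distinct gene starts, 1810055G02Rik and Tbc1d10a the highest of the centromere side, and Olfr800 and Olfr770 lay nearest to the median of the olfactory receptor starts at the telomere side of chromosome 10.

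Prkcz (chr4:155361429-155361678, minus strand): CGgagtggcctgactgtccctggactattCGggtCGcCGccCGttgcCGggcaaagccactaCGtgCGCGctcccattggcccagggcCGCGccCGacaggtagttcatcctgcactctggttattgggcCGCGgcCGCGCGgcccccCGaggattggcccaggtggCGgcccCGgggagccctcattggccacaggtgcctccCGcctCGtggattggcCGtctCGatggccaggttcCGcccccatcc
Ccdc137 (chr11:120457879-120458128, plus strand): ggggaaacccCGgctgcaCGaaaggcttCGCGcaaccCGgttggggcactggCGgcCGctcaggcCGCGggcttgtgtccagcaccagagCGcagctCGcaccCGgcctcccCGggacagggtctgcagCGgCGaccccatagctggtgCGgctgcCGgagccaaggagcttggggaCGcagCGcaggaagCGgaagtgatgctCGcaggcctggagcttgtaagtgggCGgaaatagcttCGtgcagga
1810055G02Rik (chr19:3708161-3708410, plus strand): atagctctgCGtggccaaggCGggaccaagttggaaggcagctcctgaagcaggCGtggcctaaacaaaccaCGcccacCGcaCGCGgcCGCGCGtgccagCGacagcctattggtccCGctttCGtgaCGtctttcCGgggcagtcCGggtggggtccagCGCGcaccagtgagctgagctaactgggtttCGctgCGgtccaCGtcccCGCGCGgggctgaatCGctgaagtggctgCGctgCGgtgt
Tbc1d10a (chr11:4186583-4186832, plus strand): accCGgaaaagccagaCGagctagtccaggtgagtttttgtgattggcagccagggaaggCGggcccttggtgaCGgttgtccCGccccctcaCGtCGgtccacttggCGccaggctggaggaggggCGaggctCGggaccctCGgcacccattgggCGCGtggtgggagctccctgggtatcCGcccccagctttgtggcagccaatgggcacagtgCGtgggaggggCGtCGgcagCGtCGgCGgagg
Olfr800 (chr10:129659558-129659807, plus strand): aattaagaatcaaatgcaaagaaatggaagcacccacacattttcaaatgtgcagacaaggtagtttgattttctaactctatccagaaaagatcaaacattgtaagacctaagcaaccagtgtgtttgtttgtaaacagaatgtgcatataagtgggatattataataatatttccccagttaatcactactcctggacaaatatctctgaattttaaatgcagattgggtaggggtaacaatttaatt
Olfr770 (chr10:129133767-129134016, minus strand): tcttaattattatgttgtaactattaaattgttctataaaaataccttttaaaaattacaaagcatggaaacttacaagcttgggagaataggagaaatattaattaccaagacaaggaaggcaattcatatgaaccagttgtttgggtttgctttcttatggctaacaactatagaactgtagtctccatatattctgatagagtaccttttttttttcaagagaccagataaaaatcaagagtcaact

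The first 4 sequences held 25, 23, 27 and 20 CG dinucleotides, and the 2 olfactory receptor promoters held 0. Prkcz encodes an atypical protein kinase C that acts in epithelial polarity, and Tbc1d10a encodes a GTPase-activating protein for Rab proteins.

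Libraries held 1522615 and 1272771 break ends in Cd73 high, 4757961 and 5160171 in Cd73 mid, and 13043514 and 12585228 in Cd73 negative cells. Depth therefore moved with the gate, and so did the share of break ends at positions with more than 1, at 6.32% and 6.38% in high, 12.8% and 16.6% in mid, and 25.5% and 26.2% in negative libraries. Values at equal depth, given where they bear on a comparison of gates, come from thinning every library to the size of the smallest. The bodies of all 16 enterocyte marker genes examined held more break ends per base than the rest of their chromosomes. Of genes of 5 kb or longer in the rest, 79.0% did so. The median of the 16 was 2.03 times the rest in high, 1.97 in mid and 2.12 in negative cells. Of 6 lymphocyte markers, 4 lay higher in both high libraries than in both negative ones and 0 lower. Of the 16 enterocyte markers 3 lay higher and 6 lower in this way, and of all 100 kb bins 23.1% and 22.7%. The lymphocyte medians were 1.41 in high, 0.964 in mid and 1.13 in negative cells. The part of lymphocytes in the results below was not tested. The medians of 4 goblet cell markers were 1.25 in high, 1.51 in mid and 1.45 in negative cells. Those of 3 Paneth cell markers were 0.643 in high, 0.288 in mid and 0.488 in negative cells. For 5 stromal and endothelial markers the medians were 1.29 in high, 1.56 in mid and 1.51 in negative cells.

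Averaged over chromosomes, the telomere sides carried slightly more break ends per base than the rest of their chromosomes, and the centromere sides fewer. Single chromosomes differed, with 7 telomere sides above the rest in all 6 libraries and 9 below it in all 6. The p-values for these averages speak of the spread between libraries, not between chromosomes. As a geometric mean over the 19 chromosomes, the telomere side stood at 1.01 and 1.01 times the rest in the 2 high libraries, 1.02 and 1.02 in mid, and 1.03 and 1.03 in negative. All 6 libraries lay above 1 and within a narrow range, with a mean log2 ratio of 0.03 (exact sign-flip permutation test over 6 libraries, two-sided p = 0.03125, the smallest this design can give; 0.0390625 adjusted over 5 tests). The telomere sides made up 1.58% of the length considered and held 1.65% to 1.74% of its break ends. The size of this excess was small: without the outermost 100 kb the mean log2 ratio was 0.06, and over the outer 1 Mb alone it was -0.12, below the rest in all 6 libraries.

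The centromere side stood at 0.688 and 0.714 times the rest in high, 0.689 and 0.692 in mid, and 0.696 and 0.699 in negative libraries. The mean log2 ratio was -0.52, below the rest in 6 of 6 libraries (exact sign-flip p = 0.03125, adjusted 0.0390625). The centromere side of chromosome 14 was nearly empty, and without that chromosome the mean log2 ratio was -0.12, below the rest in each library. Taking the median bin of each side in place of its sum, which again left chromosome 14 out, the log2 ratio was 0.0043 with an exact p of 0.90625, so by this measure no difference beyond the spread between libraries was detected on the other chromosomes. Counting length as 1 kb windows that held any break end, with chromosome 14 included, the value was -0.20. How much of that value came from chromosome 14 was not computed.

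Within a library the telomere side exceeded the centromere side by 0.55 on the log2 scale, a ratio of 1.47, in 6 of 6 libraries (exact sign-flip p = 0.03125, adjusted 0.0390625). The difference was 0.17 without chromosome 14 and 0.11 by median bins, which also left it out. Per 1 kb window with break ends, chromosome 14 included, it was 0.25. It was positive in all 6 libraries in each case. It was not shared by every chromosome: the telomere side lay above the centromere side in all 6 libraries on 11 chromosomes and below it in all 6 on 7.

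**Figure D1:**
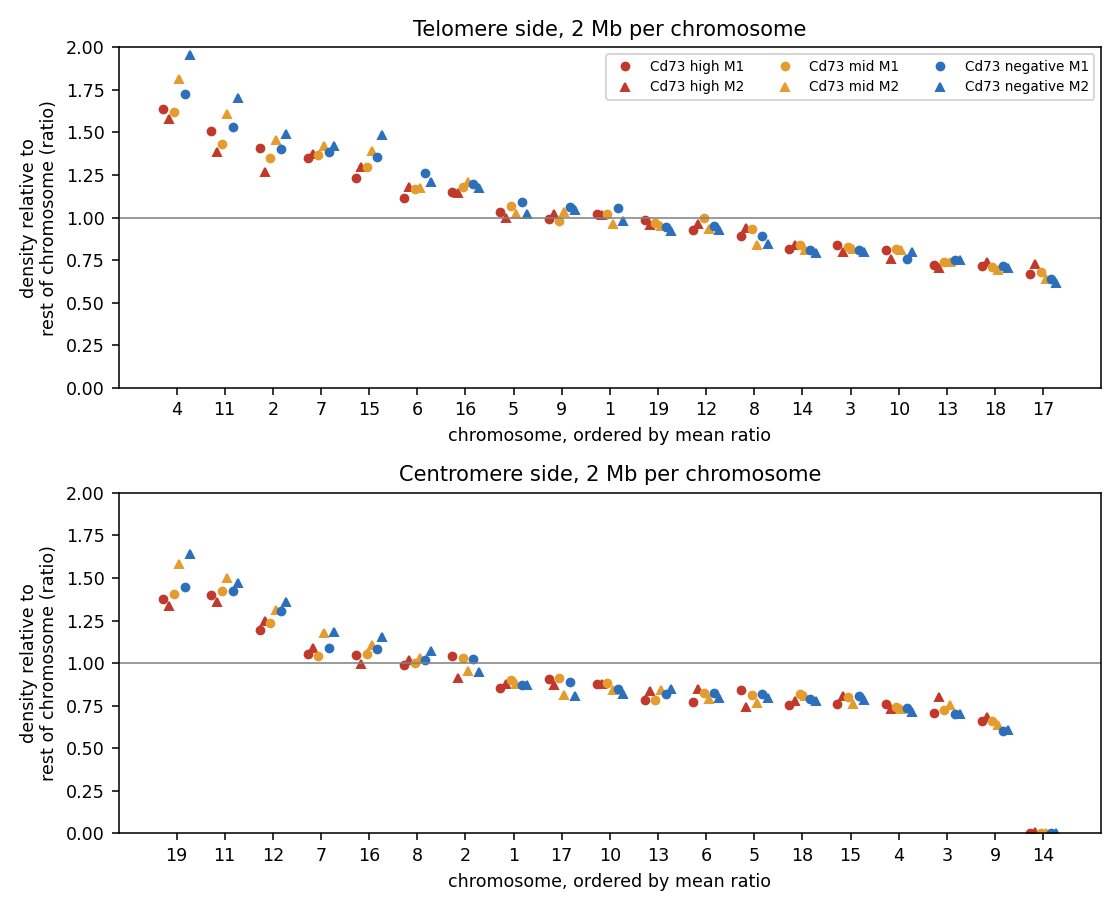
Break end density of each 2 Mb side over that of the rest of its chromosome (y axis, ratio), a point per library, for the telomere side (top) and the centromere side (bottom), chromosomes ordered by their mean. Points of all gates lie close together on each chromosome, the telomere sides of chromosomes 4 and 11 and the centromere sides of 19 and 11 lie highest, and the centromere side of chromosome 14 lies at 0.00340 to 0.00844.

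Chromosomes differed far more than libraries did. On the telomere side, chromosome 4 was highest at 1.64 and 1.58 times its rest in high, 1.62 and 1.82 in mid and 1.73 and 1.95 in negative libraries. Chromosome 11 followed at 1.51 and 1.39 in high, 1.43 and 1.61 in mid and 1.53 and 1.70 in negative, and chromosome 2 came next at 1.41 and 1.27 in high, 1.35 and 1.46 in mid and 1.40 and 1.49 in negative. Neighbours in this order overlapped in range, while chromosomes 4 and 2 did not, and each of the 6 libraries gave the same order. The ends of chromosomes 4, 11 and 2 held 57, 67 and 60 protein-coding genes wholly inside the 2 Mb. The end with the most such genes was that of chromosome 10, with 84, and its ratio averaged 0.791.

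The lowest telomere sides were those of chromosome 17, at 0.666 and 0.726 in high, 0.678 and 0.638 in mid and 0.639 and 0.615 in negative libraries, chromosome 18 (0.692 to 0.738 over the 6 libraries) and chromosome 13 (0.705 to 0.751). The end of chromosome 17 held 3 protein-coding genes covering 2.55% of its bases. In all, 7 telomere sides lay above the rest of their chromosome in every library and 9 lay below it in every library. Of the 18 neighbouring pairs in the order of telomere sides, 16 overlapped in range. The breaks in the order fell between chromosomes 16 and 5 and between 10 and 13.

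The centromere side was highest on chromosome 19, at 1.38 and 1.34 in high, 1.40 and 1.58 in mid and 1.45 and 1.64 in negative libraries. Chromosome 11 was next (1.36 to 1.5 over the 6 libraries), followed by chromosome 12 (1.19 to 1.36). Protein-coding genes covered 61.5%, 62.7% and 66.2% of their bases. Similar cover was found on chromosome 2 (63.1%, mean ratio 0.984) and chromosome 10 (59.6%, mean ratio 0.857), neither of which lay above the rest in all 6 libraries. Only chromosomes 19, 11, 12 and 7 lay above the rest in all 6 libraries, while 12 chromosomes lay below in all 6. Of the 18 neighbouring pairs in the order, 13 overlapped in range.

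Chromosome 14 stood apart, with 5 and 8 break ends over its whole 2 Mb centromere side in high, 12 and 13 in mid and 42 and 38 in negative libraries, a ratio of 0.00441 and 0.00844 in high, 0.00340 and 0.00347 in mid, and 0.00439 and 0.00420 in negative. Only 4.3% of its 1 kb windows held a break end in any library. The annotation places 32 protein-coding genes there, 30 of them with Gm names, the provisional symbols of predicted mouse genes. The mappability of these bases was not tested here. The next lowest centromere sides were chromosome 9 (0.603 to 0.684) and chromosome 3 (0.700 to 0.800).

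Across the 19 telomere sides, the log2 ratio and the percentage of bases inside protein-coding genes correlated with a Pearson r of 0.60 and a Spearman rho of 0.63, and without chromosome 14 with an r of 0.77 and a rho of 0.78. Across the 19 centromere sides r was 0.096 and rho 0.58, and across the 18 without chromosome 14, r was 0.63 and rho 0.62. The percentage of 1 kb windows holding any break end, which comes from the same break ends, correlated with the ratio at r = 0.64 and rho = 0.79 on the telomere side and at r = 0.18 and rho = 0.30 over the 18 centromere sides. The telomere and centromere ratios of the same chromosome correlated with r = 0.23 over 19 chromosomes. These are descriptions over chromosomes measured in the same 6 libraries, and share their depth.

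On the telomere side of chromosome 14, 77.2% of bases lay in protein-coding genes, only 5 genes in all, and the ratio was 0.790 to 0.841. The telomere side of chromosome 1 had 17.6% of bases in genes and ratios of 0.960 to 1.06.

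**Figure D2:**
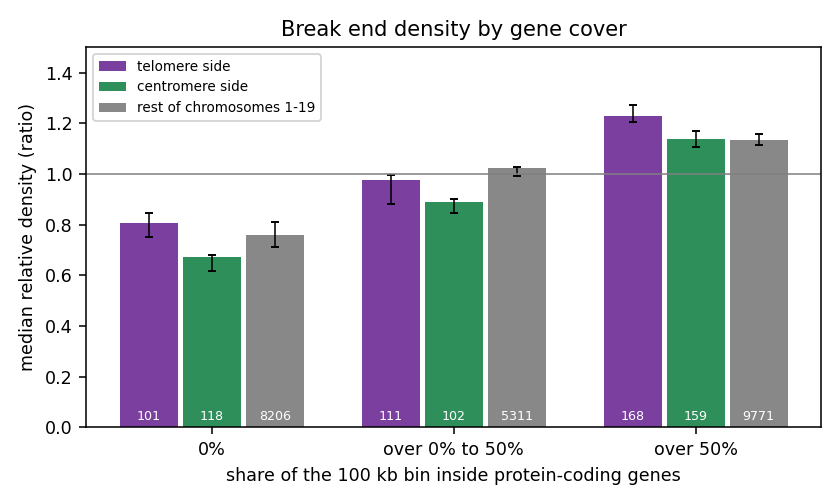
Median break end density of 100 kb bins relative to the rest of their chromosome (y axis, ratio, from 0), by the share of the bin inside protein-coding genes, for telomere side, centromere side and rest. Bars are medians of bin means over the 6 libraries, whiskers run from the lowest to the highest library median, and the number in each bar is the number of bins. The centromere side is lowest where genes cover 50% of the bin or less, and the telomere side is highest where genes cover over 50% of the bin.

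Split by gene cover, bins with over 50% of their bases in protein-coding genes had a median of 1.23 times the rest of the chromosome on the telomere side (168 bins), 1.14 on the centromere side (159 bins) and 1.13 in the rest (9771 bins). Library medians for this class ran over 1.2 to 1.27 on the telomere side, 1.11 to 1.17 on the centromere side and 1.12 to 1.16 in the rest, so the telomere side lay above the others in range while the centromere side did not differ from the rest beyond the libraries' spread. Bins without any protein-coding gene had medians of 0.805 on the telomere side, 0.671 on the centromere side and 0.760 in the rest. Their library medians were 0.751 to 0.845 on the telomere side, 0.618 to 0.680 on the centromere side and 0.710 to 0.811 in the rest, with the centromere side below both others. Bins between these classes stood at 0.978 on the telomere side, 0.891 on the centromere side and 1.02 in the rest. Gene cover itself was alike, at a mean of 43.3% on the telomere side, 40.6% on the centromere side and 40.9% in the rest.

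Density changed with distance from the outer end. The outermost 100 kb of the telomere side had a median of 0.521 times the rest of the chromosome over the 19 chromosomes, with library medians of 0.493 to 0.580. The next 4 bins inward stood at 0.684, 0.677, 0.808 and 0.978, and the sixth at 1.11. From there the medians stayed between 0.950 and 1.17. The highest value, 1.17, was that of the innermost bin, where 16 of 19 chromosomes lay above 1.

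On the centromere side the outermost bin was almost empty, with a median of 0.032 over 18 chromosomes, and none of these 18 exceeded 1 there. That of chromosome 9, left out by the rule, stood at 2.27 to 6.83 times the rest of its chromosome over the 6 libraries. The next bin inward stood at 0.326, the third at 0.645 and the fourth at 0.881, and later bins varied between 0.738 and 1.07. Covered length declined outward as well: 30.6% and 65.8% of 1 kb windows in the outermost bin and its neighbour on the centromere side held any break end, and 79.7% in the outermost telomere-side bin. Per window with break ends, the outermost medians were 0.234 on the centromere side and 0.692 on the telomere side. Whether windows without break ends could be mapped was not tested.

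**Figure D3:**
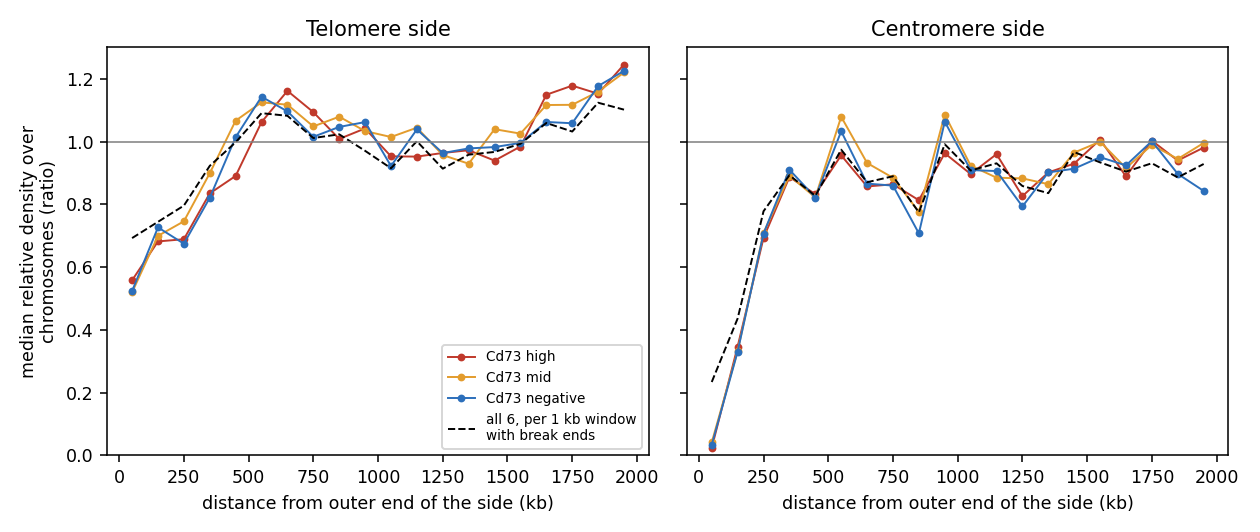
Median density over chromosomes relative to the rest of the chromosome (y axis, ratio) against distance from the outer end of each side (x axis, kb), a line per gate (mean of 2 libraries) and a dashed line for all 6 libraries per 1 kb window with break ends. The 3 gates follow the same course, lowest in the outermost bin of both sides.

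Over single bins, the median relative density was 1.01 on the telomere side, 0.849 on the centromere side and 0.934 in the rest. Bins above 1.5 made up 15% of telomere-side bins (57), 11.9% of centromere-side bins (45) and 10.3% of the rest. Bins below 0.5 made up 7.11% of the telomere side, 16.9% of the centromere side and 4.89% of the rest. No break end in any library fell in 0 telomere-side bins, 10 centromere-side bins and 119 bins of the rest. Both tails were fuller on both sides than in the rest, the lower tail most on the centromere side. Libraries ranked the bins alike: the Spearman correlation between any 2 libraries was 0.856 to 0.982 over the 380 telomere-side bins and 0.892 to 0.984 over the 379 centromere-side bins, lowest for the 2 high libraries, which were the shallowest.

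The densest telomere-side bins lay on chromosomes 11 and 4. First was chr11:120182039-120282038, which overlaps Bahcc1, a gene of a chromatin reader protein, at 2.19 and 2.05 times the rest of the chromosome in high, 2.39 and 3.10 in mid and 2.71 and 3.30 in negative libraries. The bin chr4:155758029-155858028 followed at 2.22 and 2.19 in high, 2.35 and 2.63 in mid and 2.63 and 2.97 in negative. It holds 9 protein-coding genes, among them Vwa1, an extracellular matrix protein, and Dvl1, which relays Wnt signals from Frizzled receptors. Both bins lay above 2 in every library, and neither passed the test between gates (edgeR quasi-likelihood adjusted p for high against negative 0.432 and 0.525).

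The other leading telomere-side bins were chr11:120582039-120682038 (mean 2.47), chr4:156158029-156258028 (2.44) and chr4:155558029-155658028 (2.35). The bin on chromosome 11 holds 10 protein-coding genes, with Notum, which inactivates secreted Wnt proteins, Sirt7, a nuclear deacylase, and Mafg, a small Maf transcription factor. The bin at chr4:156158029-156258028 holds Agrn, a basement membrane proteoglycan, and Isg15, a ubiquitin-like modifier induced by interferon, and it borders the lowest telomere-side bin among those with 10 or more break ends in every library. The bin at chr4:155558029-155658028 holds Gnb1, a G protein subunit, and Mib2, a ubiquitin ligase of the Notch pathway.

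That bin, chr4:156258029-156358028, is the outermost 100 kb of chromosome 4 and holds Vmn2r129, a vomeronasal receptor gene. Its relative density was 0.274 and 0.213 in high, 0.233 and 0.267 in mid and 0.195 and 0.166 in negative libraries. Its neighbour is among the densest bins named above. The next lowest were the outermost bins of chromosomes 8 (chr8:129200937-129300936, mean 0.230) and 11 (chr11:121882039-121982038, mean 0.249), counting only bins with 10 or more break ends in every library.

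On the centromere side a single bin stood far above all others. The bin chr11:3100001-3200000, next to the outermost, stood at 5.64 and 5.77 times the rest of the chromosome in high, 5.76 and 6.08 in mid and 5.25 and 5.59 in negative libraries. It holds most of Sfi1, a centrin-binding protein of the centrosome, and a single 1 kb window, chr11:3193001-3194000, carried 18.4% to 25.9% of its break ends. How reads from repeated copies were placed is not known from the labels, and the copy number of Sfi1 was not tested. Without that window the bin still stood at 4.58 and 4.76 in high, 4.51 and 4.60 in mid and 4.13 and 4.19 in negative libraries. Gates did not separate there (log2 fold change 0.00052 ± 0.45, SE, high against negative).

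The following bins were chr19:4100001-4200000 (mean 2.36), chr7:4700001-4800000 (2.23), chr7:3600001-3700000 (2.10) and chr16:4600001-4700000 (2.05). All are dense in genes: the first holds 12 protein-coding genes, among them Ppp1ca, a catalytic subunit of protein phosphatase 1, and Rad9a, a DNA damage checkpoint clamp protein. Among bins with 10 or more break ends in every library, the lowest were those next to the outermost of chromosomes 13 (chr13:3100001-3200000, mean 0.163), 19 (chr19:3100001-3200000, 0.191) and 18 (chr18:3100001-3200000, 0.239), of which only the last has an annotated protein-coding gene, Vmn1r238. In 18 centromere-side and 5 telomere-side bins a single 1 kb window held over 20% of the break ends.

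Genes of at least 5 kb inside the ends had a median body density of 1.49 times the rest of the chromosome on the telomere side (350 genes), 1.36 on the centromere side (354) and 1.37 in the rest. Library medians ran over 1.34 to 1.60 on the telomere side, 1.24 to 1.46 on the centromere side and 1.29 to 1.44 in the rest, so the ranges overlapped. The telomere side nevertheless had more genes above 2, at 24.3% against 19% in the rest.

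Vwa1 (chr4:155768495-155774693) led the telomere side. Its mean was 5.47 ± 1.11 in high, 5.87 ± 0.871 in mid and 7.09 ± 0.501 in negative cells (SD, n = 2 each), from 18 and 20 break ends in high, 63 and 86 in mid and 223 and 242 in negative libraries. Notum followed with 4.67 ± 0.458 in high, 4.86 ± 1.47 in mid and 5.39 ± 0.741 in negative cells, and then Pex10, a ubiquitin ligase of peroxisome import, with 3.54 ± 0.928 in high, 5.24 ± 1.82 in mid and 5.39 ± 1.61 in negative cells. The differences between gates were of the size of the spread between the 2 libraries of a gate for Notum and Pex10.

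Slc16a3, a lactate and monocarboxylate transporter whose annotation overlaps Csnk1d, had a mean over libraries of 4.13. Tarbp2, a partner of Dicer, stood at 4.01, Mrgbp, a subunit of the NuA4 acetyltransferase, at 3.96, and Hrh3, a histamine receptor, at 3.91. Mafg (3.88), Tepsin, an accessory protein of the AP-4 coat (3.84), and Mib2 (3.79) completed the first 10. For Hrh3 and Tepsin the counts in Cd73 high M2 were only 3 and 9 break ends, so their values there rest on few events.

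On the centromere side Sfi1 (chr11:3131850-3203347) was first, at 7.17 ± 0.284 in high, 7.78 ± 0.368 in mid and 7.41 ± 0.337 in negative cells. Sox17 (chr1:4490928-4497426), an endoderm and endothelial transcription factor, followed at 4.04 ± 1.28 in high, 4.93 ± 1.21 in mid and 6.42 ± 1.74 in negative cells. Next were Leng1 (mean 4.76), Leng8 (4.34), Pitpnm1 (3.99), a phosphatidylinositol transfer protein, and Kmt5c (3.95), which methylates histone H4 in heterochromatin. The list closed with 1810055G02Rik (3.71), Rbm14 (3.63), Ubald1 (3.61) and Nat14 (3.49). Sox17 was alone among the 10 in not lying on chromosomes 7, 11, 16 or 19.

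Break ends gathered at gene starts in the ends as they did elsewhere. In the first 100 bases after the start the mean density was 9.16 times the rest of the chromosome on the telomere side (486 starts; 6.83 to 11.5 over libraries), 8.37 on the centromere side (448 starts; 6.18 to 11.2) and 8.18 in the rest (19129 starts; 6.43 to 10.5). Beyond 2 kb the means were 1.31 on the telomere side, 1.28 on the centromere side and 1.34 in the rest. The ranges over libraries overlapped at this peak, but the sides are measured in the same libraries, whose level moves with the gate.

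**Figure D4:**
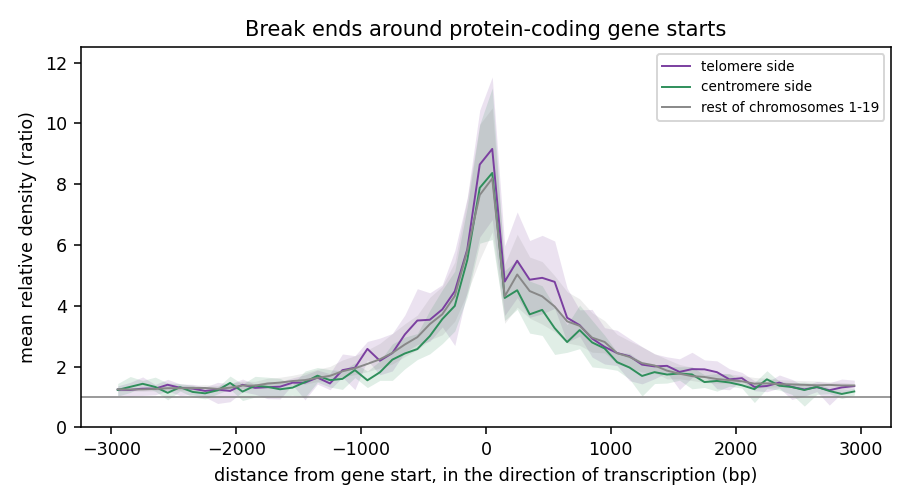
Mean break end density relative to the rest of the chromosome (y axis, ratio) in 100 bp steps around protein-coding gene starts (x axis, bp, in the direction of transcription), for the telomere side, the centromere side and the rest. Lines are means over the 6 libraries and bands run from the lowest to the highest library; the bands of the 3 overlap at the peak.

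In windows of 300 bases from 250 before to 50 after a start, the mean density was 7.29 on the telomere side (486 windows), 6.80 on the centromere side (449) and 6.75 in the rest (19150). Within a library the telomere side lay above the rest in 6 of 6 libraries and the centromere side in 4 of 6, and this difference was not tested. Windows with at least 15 CG dinucleotides averaged 11.9 on the telomere side, 12.2 on the centromere side and 11 in the rest. Those with fewer averaged 2.63 on the telomere side, 2.56 on the centromere side and 2.81 in the rest, so the contrast by CG content was of the same order in all. The telomere repeat unit TTAGGG, sought on both strands, occurred in 10.3% of telomere-side windows, 9.35% of centromere-side windows and 10.5% of the rest.

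Single starts ran far higher. The Prkcz window whose promoter is printed above held 4 and 8 break ends in high, 15 and 42 in mid and 83 and 109 in negative libraries, a mean of 47.6 times the rest of the chromosome. The Ccdc137 window, which overlaps that of the divergent gene Oxld1, averaged 44.3, and Zgpat (40.5) and Hgs (38.9), which sorts ubiquitylated receptors into endosomes, came next. On the centromere side 1810055G02Rik averaged 56.5 and Tbc1d10a 49.9. With so few break ends in the high libraries the spread was wide, for Prkcz from 21.5 to 69.3.

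Olfactory receptor genes gave the opposite picture. They are transcribed in olfactory neurons, and 58 of the 501 protein-coding genes wholly inside telomere sides carried Olfr symbols (11.6%, against 5.32% in the rest), all 58 at the end of chromosome 10, and 2 of 424 on the centromere side. The 47 Olfr start windows with a sequence there averaged 0.405 times the rest of the chromosome, and 12 of them held no break end in any library. The 28 windows of other genes at the same end averaged 6.80. The Olfr800 and Olfr770 windows each held 2 break ends over the 6 libraries. The 14 bins with Olfr genes had a median of 0.634 (0.368 to 1.74), and the 6 without had 1.05 (0.352 to 1.80). Of those 6, the innermost stood at 1.44, 1.80 and 1.49. The outermost, which overlap Vmn2r genes, stood at 0.657, 0.352 and 0.408, so low density there was not limited to bins with Olfr genes. The bin at 1.74 holds Olfr9 beside Cd63 and Itga7.

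Zinc finger genes with Zfp symbols made up 1.80% of protein-coding genes on the telomere side, 1.65% on the centromere side and 1.90% in the rest. Vomeronasal receptor genes (Vmn) numbered 6 on the telomere side and 3 on the centromere side, and genes with Rik names 6 and 10. Predicted genes with Gm names made up 3.99% on the telomere side, 9.67% on the centromere side, where 30 of 41 lay on chromosome 14, and 4.59% in the rest.

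How mean density at gene starts differed by gate depended on how positions were counted at full depth, but less so at equal depth. On the telomere side it was 7.04 and 5.30 in high, 5.97 and 8.06 in mid and 8.21 and 9.15 in negative libraries, with overlap between high and mid. The slope over the gates had an exact permutation p of 0.111 on the telomere side, 0.0444 on the centromere side and 0.0444 in the rest (0.111, 0.0667 and 0.0667 adjusted over the 3). With each listed position counted once at full depth, the gate means on the telomere side were 5.54 in high, 5.65 in mid and 5.65 in negative cells (exact p = 0.844). At equal depth with all break ends counted they were 6.25 in high, 7.45 in mid and 8.68 in negative cells (exact p = 0.133). Those of the centromere side were then 5.34 in high, 6.56 in mid and 8.61 in negative cells (exact p = 0.0222, adjusted 0.0667). Single counting at equal depth kept this order of the gates. The telomere-side means were then 5.66 in high, 6.75 in mid and 7.5 in negative cells (exact p = 0.133). On the centromere side they were 4.89 in high, 5.88 in mid and 7.41 in negative cells (exact p = 0.0222, adjusted 0.0667). No slope over the gates passed at gene starts of the ends after adjustment. The smallest p that the 90 arrangements can give is 0.0222. A single side at that value adjusts to 0.0667 over the 3, so it could not pass alone.

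Across the Cd73 gates, the telomere side changed slightly. The log2 ratio to the rest was 0.015 and 0.010 in high, 0.029 and 0.035 in mid and 0.043 and 0.045 in negative libraries. The gates did not overlap, and the ratio was lower by 0.016 on the log2 scale for each step toward high (exact permutation test over the 90 arrangements of libraries to gates, two-sided p = 0.0222, the smallest possible; 0.0390625 adjusted over 5 tests). Thinned to equal depth the slope was -0.019 (exact p = 0.0444), and with each position counted once it was -0.0097 (exact p = 0.0222). At equal depth the mid ratios (1.024 and 1.031) and the negative ratios (1.038 and 1.030) overlapped. Both high ratios (1.007 and 1.007) stayed below them. With the replicate number as a block the exact p was 0.0556, and without Cd73 mid M1 or Cd73 mid M2 it was 0.0667 in each case, at a slope of -0.016 in all 3. These are the smallest values those arrangements can give, so they could not pass the threshold. On the centromere side the 2 high libraries were the lowest and the highest of the 6. Without chromosome 14, both high libraries (0.910 and 0.914 times the rest) lay below all others. The mid libraries then stood at 0.925 and 0.928 and the negative ones at 0.923 and 0.928. Over all 19 chromosomes the slope on the centromere side was 0.0035 (exact p = 0.8, adjusted 0.8). That slope turned to -0.011 without Cd73 high M2 (exact p = 0.0333), to -0.010 without chromosome 14 (exact p = 0.0889) and to -0.022 with chromosomes pooled (exact p = 0.0444).

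**Figure D5:**
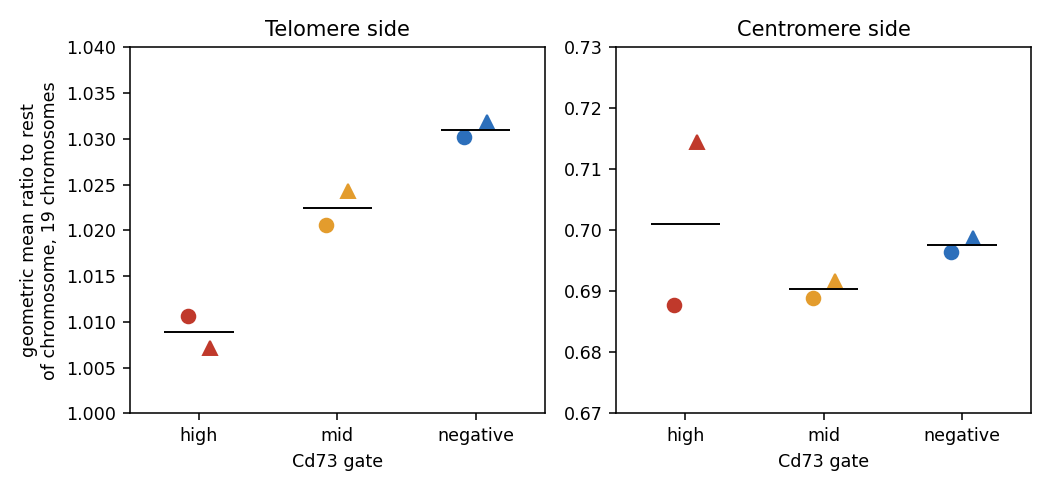
Geometric mean over 19 chromosomes of the ratio of each side to the rest of its chromosome (y axis, ratio; the 2 panels have different ranges and do not start at 0), by Cd73 gate; circles are M1, triangles M2 and bars the mean of both. Telomere-side values at full depth separate by gate, with both high libraries at 1.01, both mid libraries at 1.02 and both negative libraries at 1.03. At equal depth, not shown, mid and negative overlap. The centromere-side values of high enclose the others, while without chromosome 14, not shown, both high libraries lie lowest.

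When the 2 Mb sides were tested with edgeR among 1304 segments of the genome, no side passed an adjusted p of 0.05 in any of the 3 comparisons. Of all segments, 0.537% were called higher in high against negative, 0.0767% in mid against negative and 0.0767% in high against mid, and 0% lower in each. At an unadjusted p under 0.05, edgeR gave 3 telomere and 3 centromere sides in high against negative (15.8% of each, against 24.8% of all segments), 1 of each in mid against negative (5.26%, against 10.4%) and 0 in high against mid (against 4.60%), and DESeq2 called 0 sides in high against negative after adjustment. With Cd73 mid M1 or Cd73 mid M2 left out of the fit, 3 centromere sides were called lower in high against negative, where 150 and 144 of all 1306 segments were called, and with Cd73 negative M1 left out, 2 were, where 58 were called in all. With the replicate number as a block, 2 telomere and 3 centromere sides were called lower, among 185 segments called. The median log2 fold change was -0.07 for the 19 telomere sides (6 positive, 13 negative), -0.03 for the 19 centromere sides (5 positive, 14 negative) and -0.0019 for all segments. With each position counted once these medians were -0.014 for the telomere sides, -0.016 for the centromere sides and 0.00022 for all segments.

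In high against negative, 4 telomere sides lay above and 9 below without overlap of libraries, and 4 and 7 centromere sides, against 30.8% of all segments above and 30.4% below. For the telomere side that is 21.1% above and 47.4% below. In mid against negative, 2 telomere and 5 centromere sides lay above (23.5% of all segments) and 5 and 3 below (18.3%). In high against mid, 2 telomere and 2 centromere sides lay above (20.1% of all segments) and 3 and 4 below (13.7%). The smallest adjusted p-values were those of the centromere sides of chromosomes 16, 9 and 12. Chromosome 16 had 824 and 781 CPM (counts scaled by TMM library size) in high, 824 and 881 in mid and 858 and 919 in negative libraries (log2 fold change -0.15 ± 0.05, SE, edgeR adjusted p = 0.0972). Chromosome 9 ran the other way, with 543 and 554 in high, 537 and 528 in mid and 496 and 508 in negative (0.13 ± 0.04, adjusted p = 0.0976).

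In single bins, 378 of 380 telomere-side and 346 of 379 centromere-side bins passed the filter on low counts. In high against negative, 1 centromere-side bin and 0 telomere-side bins were called higher, against 0.0279% of all 25095 bins tested, and none was called lower, against 0%. In mid against negative no bin of the ends was called, against 0.00797% of all bins called higher and 0% lower, and in high against mid none was called, against 0% in each direction. At an unadjusted p under 0.05, edgeR gave 37 telomere-side and 42 centromere-side bins in high against negative, 9.79% and 12.1% of those tested, against 10.4% of all bins. Median log2 fold changes in high against negative were -0.05 on the telomere side, -0.02 on the centromere side and 0.01 over all bins. Scaled by library size alone they were -0.02 on the telomere side, 0.0041 on the centromere side and 0.03 over all bins, so the sign on the centromere side flipped while its place below all bins did not, and with each position counted once they were -0.0053 on the telomere side, -0.00085 on the centromere side and 0.00023 over all bins.

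Bins whose high libraries both lay above both negative libraries numbered 65 on the telomere side (17.2%) and 59 on the centromere side (17.1%), against 23.1% of all bins. Those lying below numbered 107 on the telomere side (28.3%) and 105 on the centromere side (30.3%), against 22.7% of all bins. In mid against negative, 15.1% of telomere-side and 19.1% of centromere-side bins lay above (19.3% of all bins), and 20.4% and 18.2% below (17.6%). In high against mid, 16.1% of telomere-side and 12.1% of centromere-side bins lay above (17.4% of all bins), and 18.3% and 22% below (16.7%). The telomere-side bins with the smallest p were chr7:144140623-144240622, within Shank2, a synaptic scaffold gene (-0.51 ± 0.15, adjusted p = 0.299), chr16:97507561-97607560 with Tmprss2, a membrane serine protease (-0.48 ± 0.15, 0.307), and chr9:123194369-123294368 with Cdcp1 and Tmem158 (-0.51 ± 0.16, 0.314). None passed the threshold.

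The bin called was chr9:3200001-3300000, the third from the outer end, which holds no annotated protein-coding gene. It had 55 and 41 break ends in high, 111 and 105 in mid and 236 and 241 in negative libraries, or 0.829 and 0.747 times the rest of the chromosome in high, 0.539 and 0.470 in mid and 0.418 and 0.444 in negative. The high libraries lay above all others (log2 fold change 0.86 ± 0.18, SE, edgeR adjusted p = 0.0338). A single 1 kb window, chr9:3258001-3259000, held 38.2% and 39% of its break ends in high, 19.8% and 26.7% in mid and 20.8% and 26.1% in negative libraries, and without it the log2 fold change was 0.54 with an adjusted p of 0.404. The call was also lost with DESeq2 (log2 fold change 0.85, adjusted p = 0.0721), with each position counted once (0.76, adjusted p = 0.390) and at equal depth (0.63, adjusted p = 0.454). It was lost without Cd73 high M1 (0.75, adjusted p = 0.614), Cd73 high M2 (0.93, adjusted p = 0.356) or Cd73 negative M1 (0.79, adjusted p = 0.0882).

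The other centromere-side bins with the smallest p lay close by in rank. At chr19:3200001-3300000, which holds Ighmbp2, a helicase, and Mrpl21, a mitochondrial ribosomal protein, there were 39 and 21 break ends in high, 149 and 193 in mid and 412 and 442 in negative libraries (-0.66 ± 0.19, adjusted p = 0.285). At chr9:4100001-4200000, without a protein-coding gene, there were 51 and 35 break ends in high, 104 and 118 in mid and 262 and 269 in negative libraries (0.54 ± 0.18, adjusted p = 0.335).

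Positions with more than 1 break end were no rarer in the ends than elsewhere. At equal depth they held 5.16% to 7.24% of break ends on the telomere side, 5.37% to 7.72% on the centromere side and 4.70% to 6.39% in the rest. In each library the rest had the lowest share, and the centromere side the highest.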

How the data were processed

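Break ends of the 6 enterocyte libraries were taken from the deposited files, which give for every listed position of a library the count of break ends, without normalization or strand. BWA and GRCm38 are named for the alignment, per the submitters' processing notes. Its version, read filters, the handling of duplicates and whether counts are molecules or reads were not stated there. The human TK6 libraries were not used here. Counts were summed into bins of 100 kb after the placeholder for the centromere, with the last 2 Mb of each chromosome tiled back from its highest listed position, and into segments of 2 Mb. Mitochondrial and unplaced positions were left out.

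For each library, the log2 ratio of break ends per base in a side to that in the rest of the same chromosome was averaged over chromosomes 1 to 19. These values were tested by exact sign flips over the 6 libraries, and their slope over the gates over all 90 arrangements, with Benjamini-Hochberg adjustment over the 5 tests. All 25095 bins and 1304 segments that passed filterByExpr, chromosomes X and Y included, were fitted in edgeR 4.0.16 (R 4.3.3; TMM, quasi-likelihood F test, 3 groups in a single fit), and adjusted p-values under 0.05 were called. CPM come from this fit. Tested on simulated counts for high against negative, it recovered 0%, 52%, 96% and 100% of bins changed 1.2, 1.5, 2 and 3-fold. There were 4 false calls among 25081 bins. For segments it recovered 82%, 98%, 96% and 98%, with 9 false calls among 1302. These counts were drawn with a single spread for all bins and a single spread for all segments. Recovery of members with a wider spread was not tested, such as the telomere side of chromosome 4 (-0.24 ± 0.15, SE, high against negative).

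Genes, promoters and gene starts are from RefSeq (GRCm38.p6), matched by symbol and position. The rule for names gave, per side, the 5 highest and 3 lowest bins (lowest among bins with at least 10 break ends in every library), bins called, the 3 bins with the smallest p in high against negative, the 3 highest and 3 lowest chromosomes, and the 10 genes of 5 kb or longer with the highest density. Gene families were counted by the symbols Olfr, Vmn, Zfp, Gm and Rik. The printed promoters, Olfr starts and the remarks on gene cover of chromosomes 1, 2, 10 and 14 were chosen after values were seen. The members, lists and tests were chosen with earlier results of these data known. Alternatives to the ratios were median bins, pooled chromosomes, the outer 1 Mb and the outermost 100 kb left out. Alternatives to the fits were DESeq2 1.42.0, scaling by library size, testing without a filter and a fixed grid. For both, positions were counted once or left out above 100 break ends, libraries were thinned to equal depth or left out in turn, and the replicate number was used as a block. Length as windows with break ends, thinning with single counting, chromosome 14 left out, the densest window left out and 3 uses of the outermost bin were added after the data were seen. Ratios and exact tests ran in numpy 2.4.6, correlations over chromosomes in scipy 1.17.1, tables in pandas 2.3.3 (Python 3.11.15), and plots in matplotlib 3.10.9.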

Additional observations from a re-analysis of the deposited data

Results flagged for a closer look

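The outermost 100 kb bin of chromosome 9, which the rule leaves out of the centromere side, held 4678 break ends over the 6 libraries, a signal in data that no comparison above uses. It had 362 and 375 break ends in Cd73 high, 561 and 799 in mid and 1285 and 1296 in negative libraries. Relative to the rest of chromosome 9 these were 5.46 and 6.83 times in high, 2.73 and 3.58 in mid and 2.27 and 2.39 in negative libraries. The high libraries lay above all others, as in the bin chr9:3200001-3300000 nearby, and the difference between gates was not tested for the bin left out.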

How the results depend on the processing

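The telomere-side excess, the centromere-side shortfall and their difference kept sign and threshold under single counting, thinning and positions over 100 break ends left out, but over the outer 1 Mb the telomere side was -0.12 (log2, exact p = 0.03125), below the rest. By median bins, where chromosome 14 was left out for bins without break ends, the centromere side was 0.0043 (exact p = 0.90625). The centromere-side slope over the gates, 0.0035 and not past the threshold, turned to -0.022 for pooled chromosomes (exact p = 0.0444), -0.032 for median bins, -0.0080 over the outer 1 Mb and -0.010 without chromosome 14; the causes were not tested beyond what each setting leaves out. Leaving out a library in turn gave an exact p of 0.0625, the smallest 5 libraries allow, for the 3 comparisons with the rest, at 0.026 to 0.034 on the telomere side, -0.53 to -0.52 on the centromere side and 0.55 to 0.56 for their difference; the slopes ran from -0.017 to -0.014 (p 0.0333 to 0.0667) and from -0.011 to 0.013, the lowest without Cd73 high M2 (p = 0.0333).

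Among single bins, DESeq2, single counting, thinning and the densest window left out each gave 0 calls in the ends for high against negative, where 1 was called, and leaving out a library gave 0 to 1. Among 2 Mb sides, leaving out a library gave 0 to 3 calls in high against negative (1 to 150 of all segments), 0 to 1 in mid against negative (0 to 14 of all) and 0 to 1 in high against mid (0 to 15 of all). The labels do not say that M1 and M2 pair the gates, and deviations of same-numbered libraries correlated at 0.0083, -0.011 and 0.33 over bins for high with mid, high with negative and mid with negative, and at -0.040, -0.18 and 0.69 over segments. With the replicate block the telomere-side slope stayed at -0.016 with an exact p of 0.0556, the smallest it allows, and 5 sides were called lower in high against negative (2 telomere, 3 centromere), where all segments gave 185 calls against 7. Over the whole genome, high against negative gave 7 called segments, against 69 with library size scaling, 16 after thinning, 11 with positions over 100 break ends left out, 2 with single counting and 0 with DESeq2, and 7 called bins, against 11 with the block, 4 with single counting and 2 after thinning. The fixed grid, library size scaling and the absence of a filter changed no call in the ends. Depth limits the high libraries most: 42 centromere-side and 7 telomere-side bins had under 10 break ends in some library.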
